A study of Mus musculus with 9 samples.

Results

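Promoters that stood open in control blood progenitors and were less accessible with Snai1 are described here: 259 promoter windows of 10271 in all. They were chosen from the authors' deposited table, which compares promoter accessibility between Snai1 and EV cells. A window was taken where its EV log2 concentration was 8 or more and the Snai1 value lay at least 0.4 below it. Log2 concentration is DiffBind's term for the log2 of the normalized read count of a region. Stretches of chromosomes 1, 4, 5 and 12, and all of chromosome 16, were left out, because whole blocks of neighbouring promoters differ there; 233 further windows in them met both limits. The 8846 windows with the same EV minimum outside these stretches are called open windows, and 8587 of them were not members.

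The cells were HPC7, a mouse hematopoietic progenitor line kept in stem cell factor, all transduced with a MIG retroviral vector. The Snai1 cells received FLAG-tagged wildtype Snai1 (3 ATAC-seq libraries), and the controls the empty vector, EV (3 libraries). A further 3 libraries of cells with the mutant mut5Snai1 were not used here. The table gives 1 value per group and none per library, so no standard deviation can be attached. Nothing in the labels ties the libraries to separate cultures, and the authors' p-values may thus rest on technical spread alone. Sequencing depth is unknown. Of 15 progenitor genes checked, 14 had a window (Erg did not), with EV values of 9.22 to 12.22. Only 5 of these lay at or above the median of all windows, 10.78. Of 9 epithelial markers 0 had a window. Of 9 fibroblast markers 2 had a window, Fap (9.15 in EV cells) and Pdgfrb (10.14), close to the lower progenitor values. In bulk cells, fewer cells with an open promoter and a less open promoter in each cell cannot be told apart.

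In ATAC-seq the Tn5 transposase cuts DNA that nucleosomes leave exposed, and an active promoter is usually such a site. Snai1 is a zinc finger transcriptional repressor that promotes epithelial-mesenchymal transition. Its fingers bind the E-box CAGGTG, and its SNAG domain recruits corepressors such as the histone demethylase Lsd1, as that of its relative Gfi1 does. Snai1 is also known to bind an E-box in its own promoter.

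Of the 12 members with the most negative change, 10 had a RefSeq start site within 1000 bp, and 4 of these promoters held CAGGTG on one strand or the other. For comparison, 20.2% of all RefSeq promoters of this length held it, and 15.5% of other open windows (given in full below). Those 4 and the promoter of Snai1 itself were picked for printing because they hold these letters. The printed set thus does not show how common the letters are, and binding was not tested. Zfp820 is added as a neighbour of Zfp53 with a similar loss and no such letters. The promoters of Zfp2, Kcnk5, Xlr4a, Bicd1 and Ppp1r3d also lacked them and are not printed. Each run is the 300 bases from 250 before to 50 after a gene start, 5′ to 3′ in the gene's direction, from RefSeq (GRCm38.p6, the same coordinates as mm10), and capitals mark CAGGTG or its complement CACCTG. They lie at chr17:21488738-21489037 (plus strand, Zfp53), chr3:94412994-94413293 (plus, Tdrkh), chr13:100552449-100552748 (minus, Ocln), chr14:103649978-103650277 (plus, Slain1), chr2:167537945-167538244 (plus, Snai1) and chr17:21845710-21846009 (minus, Zfp820). The RefSeq start lay 74 bp from the start implied by the window for Tdrkh, 15 bp for Slain1 and 32 bp for Snai1, and at the same base for the others.
Zfp53: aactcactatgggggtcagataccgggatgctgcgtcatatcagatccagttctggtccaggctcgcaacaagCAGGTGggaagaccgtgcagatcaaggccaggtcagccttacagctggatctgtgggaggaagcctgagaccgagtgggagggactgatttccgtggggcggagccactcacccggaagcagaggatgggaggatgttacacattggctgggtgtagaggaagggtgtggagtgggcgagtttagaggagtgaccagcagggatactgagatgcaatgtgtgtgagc
Tdrkh: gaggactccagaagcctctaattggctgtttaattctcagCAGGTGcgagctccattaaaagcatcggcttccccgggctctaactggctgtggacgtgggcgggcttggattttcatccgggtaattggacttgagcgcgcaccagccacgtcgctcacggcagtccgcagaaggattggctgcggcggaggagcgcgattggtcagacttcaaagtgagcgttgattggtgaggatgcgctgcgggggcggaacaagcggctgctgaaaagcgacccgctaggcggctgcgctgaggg
Ocln: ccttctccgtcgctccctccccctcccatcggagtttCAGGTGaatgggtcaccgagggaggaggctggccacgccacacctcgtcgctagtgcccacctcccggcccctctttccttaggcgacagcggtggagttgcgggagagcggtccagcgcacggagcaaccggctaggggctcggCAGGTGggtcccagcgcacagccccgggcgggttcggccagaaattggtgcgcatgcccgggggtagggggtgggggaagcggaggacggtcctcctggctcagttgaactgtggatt
Slain1: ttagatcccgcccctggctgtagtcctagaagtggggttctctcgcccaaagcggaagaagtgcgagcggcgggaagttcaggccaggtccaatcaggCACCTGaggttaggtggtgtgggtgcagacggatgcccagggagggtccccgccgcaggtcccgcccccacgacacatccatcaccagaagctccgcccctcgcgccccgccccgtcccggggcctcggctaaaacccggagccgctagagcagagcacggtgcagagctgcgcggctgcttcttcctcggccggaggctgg
Snai1: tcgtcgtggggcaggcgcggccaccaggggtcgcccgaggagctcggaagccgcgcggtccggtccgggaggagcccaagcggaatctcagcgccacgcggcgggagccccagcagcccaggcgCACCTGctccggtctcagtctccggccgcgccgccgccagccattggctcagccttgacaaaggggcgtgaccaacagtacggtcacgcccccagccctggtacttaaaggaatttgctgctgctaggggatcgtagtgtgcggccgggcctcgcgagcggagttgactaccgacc
Zfp820: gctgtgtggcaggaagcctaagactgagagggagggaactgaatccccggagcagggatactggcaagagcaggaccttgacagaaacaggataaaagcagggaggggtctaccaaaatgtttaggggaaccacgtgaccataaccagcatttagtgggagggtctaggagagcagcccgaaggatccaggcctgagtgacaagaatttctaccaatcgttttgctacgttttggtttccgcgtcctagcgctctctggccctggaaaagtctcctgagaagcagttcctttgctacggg

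Ocln, the gene of the tight junction protein occludin, carried the E-box at 2 places in this stretch, at positions -213 and -68 from its start. In the authors' deposited table its window had a log2 concentration of 4.18 in Snai1 cells against 8.99 in EV cells. Zfp53 carried 1 E-box, at position -177, and had 6.32 in Snai1 cells against 11.62 in EV cells. The window of the endogenous Snai1 gene, with 1 E-box, had 8.43 in Snai1 cells and 9.81 in EV cells, a change of -1.38 (implied SE 0.13, FDR 4.17e-26). This window runs 1000 bp into the gene. Whether reads of the introduced Snai1 were counted in it is unknown. The implied SE is the size of the change over the normal quantile that corresponds to the authors' p-value. Zfp820 lost almost as much as Ocln, 4.47 in Snai1 cells against 9.24 in EV cells, without these letters in the stretch shown.

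Smaller losses also occurred at promoters with the E-box, and 30-base stretches centred on it are shown for members of different roles: the membrane protease gene Hpn, the amyloid precursor-binding protein gene Apbb2, the SNAG repressor gene Gfi1, the neutrophil granule gene Ltf, the neighbouring antiviral genes Rsad2 and Cmpk2, and the signalling adaptor gene Lime1. Hpn, Apbb2 and Cmpk2 were chosen after their values were seen. The stretches lie at chr7:31115352-31115381 (minus strand, Hpn), chr5:66618880-66618909 (minus, Apbb2), chr5:107725830-107725859 (minus, Gfi1), chr9:111019167-111019196 (plus, Ltf), chr12:26456421-26456450 (minus, Rsad2), chr12:26469026-26469055 (plus, Cmpk2) and chr2:181381114-181381143 (plus, Lime1), with the E-box in capitals.
Hpn: cgccccatgagcCAGGTGgcctctgtggca
Apbb2: ctcggccgcctcCACCTGcaggggtcgccc
Gfi1: caggcgggtcccCACCTGctgcagagcatc
Ltf: taagaactagcaCACCTGgttgagggcaat
Rsad2: tacaggcagcagCAGGTGtgtgcctatcac
Cmpk2: tggagctaggatCACCTGccactacagaac
Lime1: atccatccagttCACCTGctttgttcacct

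Hpn, with 3 E-boxes in its promoter, had 9.31 in Snai1 cells against 11.72 in EV cells in the authors' deposited table (change -2.41, implied SE 0.09). Apbb2 had 7.24 in Snai1 cells and 9.22 in EV cells. Gfi1, whose E-box began at position -42, had 8.46 in Snai1 cells and 9.26 in EV cells. Lime1, at 7.83 in Snai1 cells and 8.42 in EV cells, had one of the smaller changes (-0.59, implied SE 0.18).

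Sequence was not used to choose the members, and the E-box was more frequent in their promoters than in those of other open windows. Of the 162 members whose implied start matched a RefSeq start exactly, 47 held CAGGTG (29.0%, Wilson 95% interval 22.6 to 36.4%), against 841 of 5415 other open windows (15.5%, 14.6 to 16.5%). These other windows leave out those higher by 0.4 or more in Snai1 cells, of which 11 of 115 held it (9.57%, 5.43 to 16.3%). Over all 32817 RefSeq promoters of this length the share was 20.2%. The intervals cover counting error only and treat promoters as independent; the difference itself was not tested.

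The E-box with the centre exchanged, CAGCTG, showed no such difference: 13.6% of member promoters held it (9.14 to 19.7%), against 13.7% of other open windows. CACGTG, the E-box of Myc and its relatives, was in 9.26% of member promoters and 11% of other open windows, and CATATG in 3.09% and 1.22%. The core AGGTG, which is contained in CAGGTG, was in 50.0% of member promoters and 47.8% of other open windows, a smaller gap than for the full hexamer. In all, 13 motifs were searched, each on both strands.

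Among the other motifs, the Ets-type site CCGGAAG was rarer in members, in 14 of 162 promoters (8.64%, Wilson 95% interval 5.22 to 14%) against 1243 of 5415 other open windows (23.0%) and 8.86% of all RefSeq promoters. It was also low in windows higher by 0.4 or more in Snai1 cells, 13 of 115 (11.3%, 6.73 to 18.4%). The cyclic AMP response element TGACGTCA was in 0.617% of member promoters and 3.75% of other open windows. CCAAT was in 32.1% of members and 40.7% of other open windows. The remaining motifs differed less: GGGCGG of the Sp family (66.0% of members, 69.0% of other open windows), TATAAA (4.94% and 5.93%), the palindromic Nrf1 motif (1.85% and 2.62%), the AP-1 motif TGACTCA (3.09% and 3.07%) and GATAAG (3.09% and 4.30%).

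Members had lower EV levels than other open windows, so the shares were also set side by side at like EV levels. The E-box share of members was 30.4% at EV log2 concentrations of 8 to 9, 31.3% at 9 to 10, 23.7% at 10 to 11 and 30.0% at 11 or more. In other open windows it was 22.6%, 16.3%, 16.4% and 14% in the same order. Within every level the members' share was the higher, but the intervals were wide, since the top level held 20 member promoters. The Ets-type site showed little separation at the lowest level, where it was in 8.93% of members and 10.2% of other open windows. It was rarer in members at the higher levels. The shares were 8.33% and 20.5% at 9 to 10, 5.26% and 25.1% at 10 to 11, and 15.0% and 22.8% at 11 or more.

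**Figure D1:**
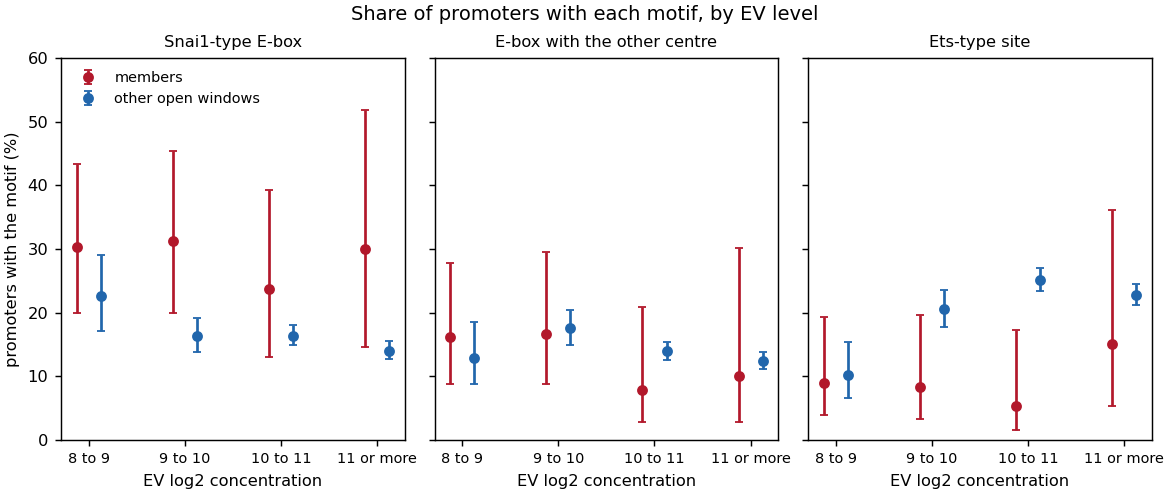
Share of promoters (%) that hold CAGGTG (left), CAGCTG (middle) or CCGGAAG (right), for members and for other open windows at 4 levels of EV log2 concentration; bars are Wilson 95% intervals. The members' share for the first motif stays between 23.7 and 31.3%, above that of other open windows at each level, while the middle panel shows no constant order.

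Where the promoter had few CpG dinucleotides (observed over expected ratio under 0.6), the E-box was in 26.6% of member promoters and 20.9% of other open windows; at 0.6 or more it was in 30.6% and 14.3%. Member promoters were as rich in G and C (median 64.3%) as other open windows (61.7%) or richer, but had fewer CpG: the median ratio was 0.68 in members and 0.81 in other open windows, and 39.5% of member promoters lay under 0.6, against 18.2%. Windows higher by 0.4 or more in Snai1 cells had a still lower median ratio, 0.61, with 47.8% under 0.6. Part of this went with level: at EV values of 8 to 9 the median ratio was 0.62 in members and 0.55 in other open windows, and at 10 to 11 it was 0.64 and 0.81.

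The 47 members with the E-box had a median change of -0.68 and the 115 without it one of -0.66. Both groups end at the limit of the rule, and the difference was not tested. Of the 47 member promoters with a change of -1 or less, 11 held the E-box (23.4%, Wilson interval 13.6 to 37.2%). Of the 115 others, 36 held it (31.3%, 23.5 to 40.3%). The interval for the larger losses includes the 15.5% of other open windows and the 20.2% of all RefSeq promoters. A higher share is thus not shown for the larger losses taken alone. The 56 E-boxes were spread over the stretch, with 19 from 100 bases before the start onwards, and 8 genes had more than 1. Promoters sampled only 300 bases of windows that are 1101 or 2001 bp long, and E-boxes elsewhere in the window were not searched.

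Most losses were moderate, and a few were very large. Changes ran from -5.30 to the limit of -0.40, with a median of -0.66 and quartiles of -1.10 and -0.47. Of the 259 members, 72 changed by -1 or less, which is at least 2-fold, 26 by -2 or less and 7 by -4 or less. In Snai1 cells 16 members lay under a log2 concentration of 6, a level under which 57 of all 10271 windows lay in EV cells. At the other end, 108 members had changed by less than 0.6. The authors called 251 of the 259 at an FDR under 0.05. Of all windows, 29.9% were called, 10.3% as lower in Snai1 cells, and of open windows 5.1% were called as lower. A change of -0.4 or less was found at 6.05% of all windows and 2.93% of open windows. The rule used this contrast, so nothing is read from these counts.

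**Figure D2:**
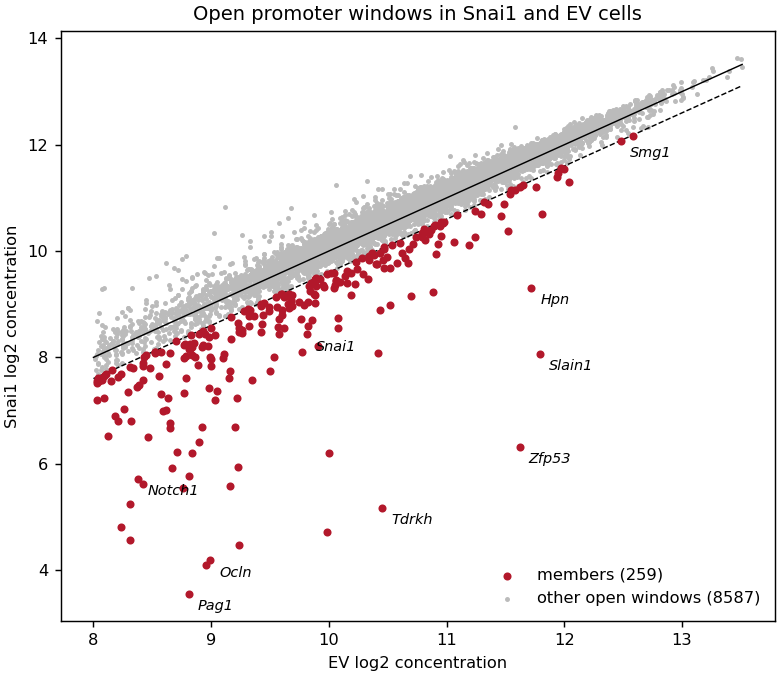
Log2 concentration in Snai1 cells (vertical) against EV cells (horizontal) for the 259 members and 8587 other open windows; the solid line marks equal values and the dashed line the limit of 0.4 below it. Most members run close below the dashed line, while Zfp53, Tdrkh, Pag1 and Ocln lie 4 or more units under it.

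The share of open windows that met the rule is given by EV level as a description, since the rule used both values. At EV values of 8 to 9, 83 of 467 open windows were members (17.8%), against 83 of 1301 at 9 to 10 (6.38%), 65 of 3409 at 10 to 11 (1.91%) and 28 of 3669 at 11 or more (0.763%). In EV cells 82.6% of members lay below the median of all windows (10.78), as did 47.1% of other open windows. The median implied SE was 0.12 in members and 0.083 in other open windows, and a fixed limit passes more windows where errors are larger. The part of this in the counts by level was not tested.

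The 8 most open members in EV cells mostly lay near the limit of the rule, with 6 of them changed by -0.40 to -0.55. They included the pseudogene Ppp4r1l-ps (12.16 in Snai1 cells, 12.58 in EV cells), the decay kinase gene Smg1 (12.07 and 12.48), the dynein adaptor gene Hook1 (11.29 and 12.04), the lipid flippase gene Atp8a1 (11.54 and 12) and the lysosome regulator gene Tfeb (11.57 and 11.97). The whole 1101 bp window of Ppp4r1l-ps lies in that of Rab22a, which starts 306 bp away in the opposite direction. Rab22a had 12.33 in Snai1 cells and 12.71 in EV cells (change -0.38, not a member), so the openness cannot be assigned to the pseudogene. Gm2a, a cofactor of lysosomal lipid breakdown, had 11.46 in Snai1 cells and 11.95 in EV cells. Hspb11, of the cilium, had 11.39 in Snai1 cells and 11.94 in EV cells, and its window contains that of the member Lrrc42 (11.21 and 11.76). Ssbp2, whose product binds the progenitor cofactor Ldb1, stood apart with 10.69 in Snai1 cells against 11.81 in EV cells (change -1.12, implied SE 0.18, FDR 7.42e-09).

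Windows at the limits show how gradual they are. Just inside the limit of 0.4 were Mras, Csrp2 and Marchf9 (each -0.40), and just outside were Gm14139, Pi4kb and Phyh (each -0.39). The least open members were Cracr2b, Sardh and Mpp2 (each 8.03 in EV cells). Among windows just under the EV minimum, Rhou had 5.88 in Snai1 cells against 7.99 in EV cells, Nif3l1 had 7.47 and 7.97, and Pkd1l3 had 6.54 and 7.94.

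Zinc finger genes, many of which encode repressors of the KRAB class, supplied 15 members among 310 open windows of genes named Zfp, Zbtb, Zscan or Zkscan (4.84%, against 2.93% of all open windows). A single cluster on chromosome 17 supplied 6 of them from 12 windows, so the higher share owes much to that locus. The choice by symbol also took in Zfp36l1, an RNA-binding protein gene. Over all 333 windows of such genes, 66 were higher and 31 lower at an FDR under 0.05 and 236 did not pass, with a median change of 0.12 against 0.08 for all windows. The background over all windows was 19.6% higher and 10.3% lower. These shares, and the 2.93% of open windows that were members, are the background for every list below. This background is not matched for EV level. The share of members was 17.8% of open windows at EV values of 8 to 9 and 0.763% at 11 or more. A list of weakly open genes can thus exceed 2.93% through its level, and this was not tested. Zfp2 on chromosome 11 had 4.10 in Snai1 cells against 8.96 in EV cells in the authors' deposited table. The others ranged from Zfp948 (-1.54) to Zfp658 (-0.40), apart from Zfp53 and Zfp820.

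Of these 15, 6 lay within 421 kb of chromosome 17: Zfp53, Zfp52, Zfp948, Zfp229, Zfp820 and Zfp995. From 100 kb before to 500 kb after the start of Zfp53 the table had 12 Zfp windows, so the other 6 were not members, and they stood between and beside the members. Zfp52 had 10.27 in Snai1 cells and 11.24 in EV cells, and Zfp948 8.98 and 10.52. Zfp229 had 10.14 in Snai1 cells and 10.93 in EV cells, and Zfp995 8.15 and 8.81. The cluster was singled out after its values were seen. By contrast Zfp51, the nearest window upstream of Zfp53, had 12.01 in Snai1 cells and 11.96 in EV cells, and Zfp983 and Zfp760 between Zfp948 and Zfp229 had changes of 0.17 (FDR 0.166) and 0.07 (FDR 0.575). Genes of such clusters are similar in sequence, so reads could be shared between them, and the treatment of reads with several matches is unknown.

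**Figure D3:**
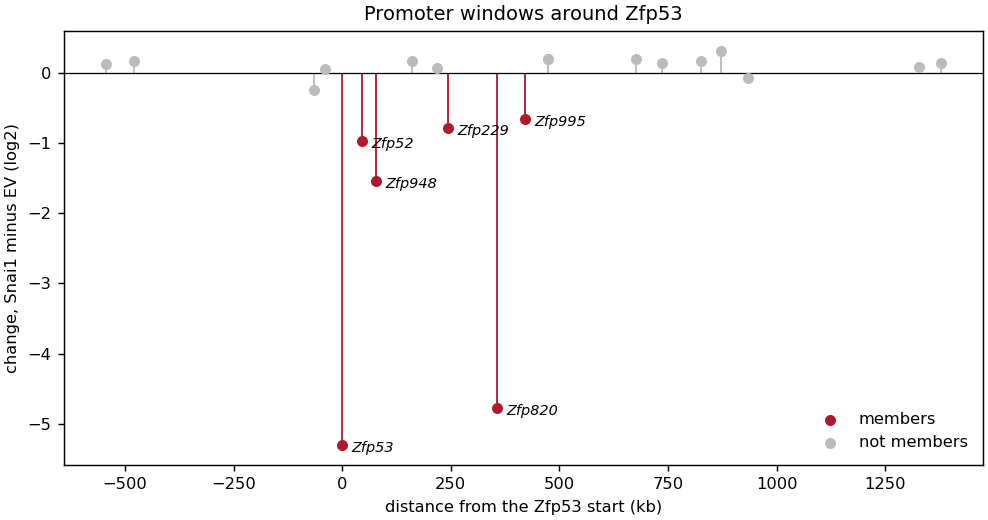
Change of the promoter windows around the Zfp53 start on chromosome 17 (vertical, log2, Snai1 minus EV) by distance from that start (horizontal, kb). The 6 members, from -0.66 to -5.30, stand among windows that lie between -0.25 and 0.31.

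Germline genes, often silenced in body cells, gave 3 members of 9 open windows of a list of 70 genes (33.3%, against 2.93% of all open windows). Of all windows of the list, 2 were higher, 3 lower and 4 not passed (median change 0.12). Tdrkh, a tudor domain gene of the piRNA pathway, had 5.17 in Snai1 cells against 10.45 in EV cells (change -5.28, implied SE 0.16) in the authors' deposited table. The X-linked neighbours Xlr4a (4.57 in Snai1 cells, 8.31 in EV cells) and Xlr4b (6.69 and 8.92) had large errors, 0.71 and 0.37. These 2 are near-identical copies, and their reads are uncertain. They may thus not be separate losses. The list was chosen with earlier results of these data known, so its share is a description only.

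Of junction, adhesion and matrix genes 3 were members. Members made up 7.69% of open windows in the epithelial junction list and 4.76% in the adhesion and migration list. In the mesenchymal and matrix list they made up 0%, against 2.93% of all open windows. Ocln was the single member among 13 open windows of the epithelial junction list (all 14 windows: 1 higher, 3 lower, 10 not passed; median 0.01). The mesenchymal and matrix list had 0 members of 11 (4 higher, 2 lower, 6 not passed; median 0.09). From the adhesion and migration list, 2 of 42 were members: Icam2, a ligand of leukocyte integrins, at a window inside the gene (9.04 in Snai1 cells, 9.82 in EV cells), and the collagen receptor gene Itga2 (9.18 and 9.69). That list had 12 windows higher, 8 lower and 30 not passed (median 0.08).

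Genes of cell contact signalling were among the members. Notch1, a receptor of blood and lymphoid cell fate, had 5.71 in Snai1 cells against 8.38 in EV cells (change -2.67, implied SE 0.20) in the authors' deposited table, and its ligand gene Dll1 had 8.95 and 9.56. Ephb4, a receptor for ephrin-B2, had 9.22 in Snai1 cells against 10.88 in EV cells. They were 3 of 26 open windows in the Notch and ephrin list (11.5%, against 2.93% of all open windows). In that list 4 windows were higher, 9 lower and 19 not passed (median 0.03). Outside any list and chosen after its values were seen, the Wnt receptor gene Fzd4 had 5.91 in Snai1 cells against 8.67 in EV cells. Chosen in the same way, the ligand genes Hbegf (7.75 and 9.50) and Pdgfb (7.87 and 8.62, at an inner window) were also members.

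Myeloid genes gave 5 members of 21 open windows (23.8%, against 2.93% of all open windows). Csf3r, which encodes the G-CSF receptor, had 7.36 in Snai1 cells against 9.05 in EV cells (change -1.69, implied SE 0.15) in the authors' deposited table. Ltf had 8.0 in Snai1 cells and 8.99 in EV cells. The pattern receptor gene Tlr2 had 8.43 in Snai1 cells and 8.90 in EV cells. Mpo, the gene of the granule enzyme myeloperoxidase, had 10.32 in Snai1 cells and 10.85 in EV cells but was not called (implied SE 0.41, FDR 0.332). Over the whole list 9 windows were higher, 7 lower and 17 not passed (median 0.04).

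Stem and progenitor regulators held 3 members of 32 open windows (9.38%, against 2.93% of all open windows). Mecom, a stem cell transcription factor, had 6.81 in Snai1 cells against 8.32 in EV cells (change -1.51, implied SE 0.17). Gfi1 is described above, and the nuclear receptor gene Nr4a1 had 8.85 in Snai1 cells and 9.32 in EV cells. The list as a whole had 9 windows higher, 5 lower and 21 not passed (median 0.10). Of the erythroid, megakaryocyte and mast cell list 1 of 13 was a member, the globin switching repressor gene Bcl11a at an inner window (10.27 in Snai1 cells, 10.79 in EV cells; list 6 higher, 3 lower, 13 not passed, median 0.17). The lymphoid list had 0 members of 8 (4 higher, 0 lower, 9 not passed; median 0.21).

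Snai1 and Gfi1 were the 2 members among 24 open windows of the Lsd1, CoREST and HDAC list (8.33%, against 2.93% of all open windows). This list also holds the SNAG factors. In that list 1 window was higher, 5 were lower and 20 did not pass (median 0.02).

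Signalling genes inside the cell supplied several members. Pag1, an adaptor that brings the inhibitory kinase Csk to Src kinases, had 3.55 in Snai1 cells against 8.81 in EV cells, the lowest Snai1 value of all members, with an implied SE of 0.59. Src itself had 7.56 in Snai1 cells and 8.15 in EV cells. Dusp5, a phosphatase that switches off ERK, had 8.01 in Snai1 cells and 9.53 in EV cells. Rasgrp2, an activator of Rap1, had 9.17 in Snai1 cells and 9.88 in EV cells, and Sh2b3, a brake on cytokine receptors, had 11.07 and 11.54. With Lime1 these were 6 of 62 open windows of the kinase and adaptor list (9.68%, against 2.93% of all open windows). That list had 17 windows higher, 11 lower and 41 not passed (median 0.06).

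Pde3b, whose enzyme degrades cyclic AMP, was the single member among 33 open windows of cyclic nucleotide and G protein genes, with 4.72 in Snai1 cells against 9.98 in EV cells (change -5.26, implied SE 0.18) in the authors' deposited table. That list had 9 windows higher, 4 lower and 27 not passed (median 0.04). Potassium channel genes gave 2 of 8: Kcnk5 (6.21 in Snai1 cells, 10.0 in EV cells) and Kcnk12 (5.54 and 8.76), both of the two-pore domain family (list 2 higher, 2 lower, 7 not passed; median 0.16). The microtubule gene Slain1 had 8.06 in Snai1 cells against 11.79 in EV cells, and the dynein adaptor gene Bicd1 had 5.58 and 9.16.

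Immediate early genes, which respond fast to growth factors and stress, gave 5 members of 24 open windows (20.8%, against 2.93% of all open windows). They included Dusp5, Nr4a1, Csrnp1 (8.07 in Snai1 cells, 9.11 in EV cells) and the RNA-binding protein gene Zfp36l1 (9.42 and 10.09). The transcription factor gene Egr3 (8.64 and 9.23) was also among them. The list had 5 windows higher, 6 lower and 15 not passed (median 0.09). The growth arrest, p53 and apoptosis list had 1 of 35, the cell cycle inhibitor gene Cdkn1a, with 8.72 in Snai1 cells and 9.76 in EV cells and a wide error (implied SE 0.30, FDR 0.00413); 6 windows of the list were higher, 7 lower and 29 not passed (median 0.05).

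Interferon-response genes gave 3 members of 27 (11.1%, against 2.93% of all open windows). Rsad2, the gene of the antiviral enzyme viperin, had 6.81 in Snai1 cells and 8.21 in EV cells. The others were the innate immune regulator gene Trim30a (8.96 and 9.69) and the membrane antiviral gene Ifitm3 (7.82 and 8.31). In that list 7 windows were higher, 6 lower and 23 not passed (median 0.03). Rsad2 and its neighbours Cmpk2 (8.93 in Snai1 cells, 9.66 in EV cells) and Rnf144a (8.44 and 9.58) were 3 consecutive open windows within 55.1 kb of chromosome 12.

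Solute carrier genes had 2 members of 140 open windows, the chloride transporter gene Slc12a5 (7.02 in Snai1 cells, 8.26 in EV cells) and the zinc transporter gene Slc39a4 at an inner window (9.78 and 10.67); 26 windows were higher, 17 lower and 130 not passed (median 0.09). Ribosomal protein genes had 0 members of 83 (17 higher, 4 lower, 70 not passed; median 0.09). All counts of members by list follow from the rule and carry no test. The lists were chosen with earlier results of these data known.

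**Figure D4:**
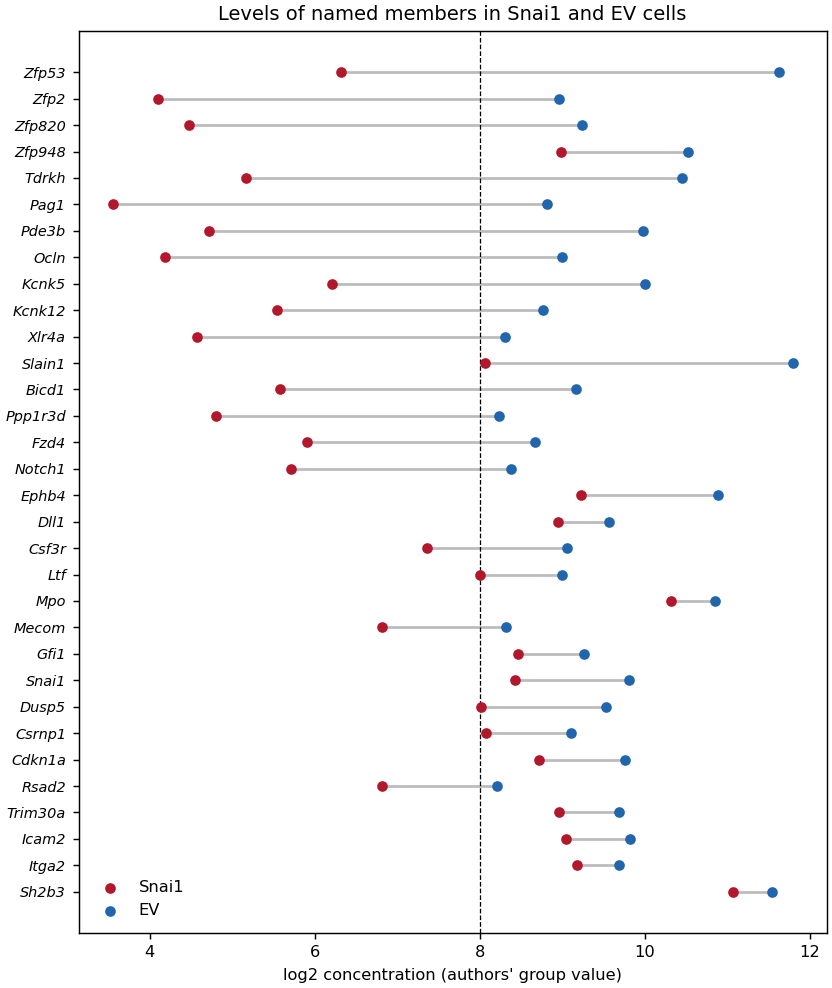
Log2 concentration of named members in Snai1 cells and EV cells, the authors' group values without error bars; the dashed line marks the EV minimum of 8. The Snai1 values of Pag1, Zfp2, Ocln and Zfp820 lie under 4.5, while those of Sh2b3, Mpo and Zfp948 remain above 8.9.

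Some members lay next to each other. Among open windows in genome order there were 19 runs of adjacent members with 42 members in them, such as Gtf2h2 (9.89 in Snai1 cells, 10.49 in EV cells) beside Ocln, and the Zfp and Rsad2 runs above. Some of these runs are windows that share bases, such as Hspb11 and Lrrc42. Others span up to 421 kb, as Bend4 and Atp8a1 do. The number of runs for members scattered at random was not worked out, so clustering is not shown. For 164 members another open window that was not a member and shared no bases lay within 100 kb. The nearest such window was lower at an FDR under 0.05 in 6 cases (3.66%, against 2.33% of all other open windows). These neighbours were by definition windows that did not meet the rule, so they do not show how far a loss extended. Windows that overlap a member share its reads: 10 members overlapped another member, which left 254 separate loci, and 6 non-members overlapped one. Ppp1r3d, a glycogen-targeting subunit gene of protein phosphatase 1, and Fam217b start 71 bp apart in opposite directions and gave -3.43 and -2.81, which is 1 event counted under 2 names. Sgsh changed by -0.55, while Slc26a11, which starts 47 bp away in the opposite direction, changed by -0.24 (FDR 0.0177).

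Members lay on all autosomes but 16, which was left out, and on X. Their share ran from 0.453% of 221 open windows on chromosome 1 to 4.11% of 754 on chromosome 2, and chromosome 17, with the Zfp cluster, had 22 of 539 (4.08%). The 2001 bp windows of plus-strand genes made up 50.2% of members and 51.3% of other open windows. By annotation 251 were assigned to protein-coding genes, 7 to long non-coding RNAs and 1 to a transcribed pseudogene, and 14 lay inside a gene and matched no start.

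A few members were measured much less exactly than others of like level. The implied SE had quartiles of 0.10 and 0.16 and was larger at low Snai1 values. It was 0.2 or more in 22 members, of which 11 had Snai1 values of 8 or more. Mpo (0.41), Pacsin1 (0.33), Cdkn1a (0.30), Slain1 (0.27) and Card14 (0.27) had the largest among the 11. The members that were not called were Mpo, Nkg7, a cytotoxic granule gene (FDR 0.137), Pacsin1 (0.297), Elmo2 (0.185), Arhgef17 (0.0792), Usp12 (0.0760), Gcc1 (0.0755) and Ppp1r21 (0.0611), with changes of -0.40 to -0.53.

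**Figure D5:**
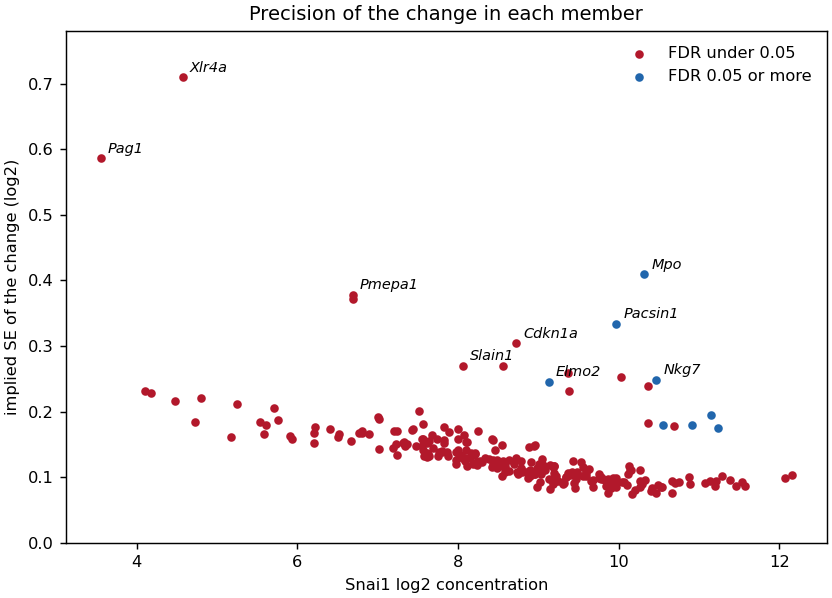
Implied SE of the change (vertical, log2) against the Snai1 log2 concentration (horizontal) for the 258 members with a p-value above 0; colour gives the authors' FDR. The errors fall with level to about 0.1, and Mpo, Pacsin1, Cdkn1a and Nkg7 lie above that course.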

How the data were processed

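ATAC-seq libraries came from HPC7 cells with Snai1, mut5Snai1 or EV (3 each). Per the submitters' processing notes, the tools were DiffBind, Picard, Bowtie2 and fastp, and the build was mm10. Their versions, any Tn5 shift, and how reads were counted and scaled are unknown. Per the file headers, the deposited table holds the authors' log2 concentrations of both groups, a log2 fold, p-values and FDR for promoter windows. Columns with values of a single library numbered 0, so no model was fitted. The deposited fold is EV minus Snai1; changes here are the Snai1 minus the EV group value and equal the turned fold within 0.01. Of 10274 rows 3 repeats were dropped.

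Windows of 2001 bp were read as plus-strand starts (1000 bp before to 1000 bp after), those of 1101 bp as minus-strand starts (1000 before to 100 after). Genes were assigned by RefSeq start or gene boundary (exact, then within 1000 bp), else by the spanning gene. Promoter letters were searched on both strands; 524 of 524 overlapping promoters of opposite strand were reverse complements. The implied SE and motif search were run on simulated data as a check of the code. The simulated p-values came from the same normal formula, so this cannot show that the implied SE holds for the authors' model. Named genes were the 12 most negative changes, the 8 highest EV levels, 3 windows at each side of each limit, up to 4 members from each of 19 lists (15 hand-written, 4 by symbol), and Snai1. Any other gene named, further members of a list included, was chosen after its values were seen. Some members are not reported here. Members and lists were chosen with earlier results of these data known. Python 3.11.15, pandas 2.3.3 and SciPy 1.17.1 were used.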

Additional observations from a re-analysis of the deposited data

How the results depend on the processing

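Of the settings tried, 4 moved a value beyond its range. A limit of -1 left 72 members, and keeping the left-out stretches gave 492 members, 479 of them called by the authors. Searching AGGTG in place of CAGGTG raised the share of member promoters to 50.0%, against 47.6% of open windows that were not members. With a limit of -0.3 there were 373 members and with -0.5 there were 184. An EV minimum of 7 gave 317 and one of 9 gave 176, and subtracting the median change of all windows (0.08) first gave 345. The CAGGTG share of members lay between 23.4% (47 promoters, limit of -1) and 29.7% over the other settings, and that of open windows that were not members between 13.3% and 15.7%. The median GC of member promoters stayed between 62.8% and 64.5%. No paired analysis was possible because the table has no value per library, and leaving out a library was not possible for the same reason. The unknown depth limits the weakly open members most, and intervals cover counting error only.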

Other observations

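Both genes of a related pair were members in several cases, picked after their values were seen and with no test. The mTORC1 regulator genes Castor1 (8.98 in Snai1 cells, 9.79 in EV cells) and Castor2 (9.35 and 9.83) were both lower. So were the calcium channel regulator genes Cracr2a (8.48 and 9.24, at an inner window) and Cracr2b (7.20 and 8.03), the ubiquitin ligase genes Rnf144a and Rnf144b (7.80 in Snai1 cells, 8.34 in EV cells), and the adaptor genes Sh2b2 (8.11 in Snai1 cells, 9.77 in EV cells) and Sh2b3. Other members, picked in the same way from no list, were the BMP signal transducer gene Smad1 (7.61 in Snai1 cells, 9.15 in EV cells), the helix-loop-helix inhibitor gene Id3 (7.0 and 8.59), the membrane protein gene Pmepa1 (6.69 and 9.20, implied SE 0.38), the ubiquitin ligase gene Smurf1 (9.83 and 10.34) and the TGF-beta coreceptor gene Tgfbr3 (7.34 and 8.29). The growth factor receptor genes Fgfr1 (8.24 in Snai1 cells, 8.93 in EV cells), Igf1r (10.47 and 10.89) and Insr (10.37 and 10.84) were further examples and not a complete set. The DNA demethylation gene Tet3 had 6.21 in Snai1 cells against 8.84 in EV cells, and the chromatin organizer gene Satb1 7.33 against 8.77.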
